A study of Mus musculus with 16 samples.

Results

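FB5 is one of the 10 fibroblast subclusters, FB1 to FB10, in the authors' annotation of single cells from the left ventricle of mice of a transverse aortic constriction model. Constriction narrows the aorta and raises the pressure against which the left ventricle pumps. The members are the cells that carry the subcluster name FB5, 83 of 1775 fibroblasts and of 11492 cells in all. The cells came from 16 male mice, grouped by the labels into the stages 0w (2 mice), 2w (2 mice), 5w (7 mice), 8w (3 mice) and 11w (2 mice). The labels give no strain, age or genotype, do not say whether the 0w mice were operated on, and do not say which digestion each mouse received, a protease and collagenase mixture for myocytes or a papain enzyme for the other cells.

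Cardiac fibroblasts make and remodel the collagen matrix between myocytes. In the unstressed heart many of them lie in the interstitium and in the adventitia around vessels, where cells rich in Pi16, Cd34 and Dpt are found. Under pressure load, part of them takes on a matrix-producing state with periostin (Postn) and contractile genes, and later a state with cartilage-like matrix genes such as Comp and Cilp.

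Most FB5 cells came from a pair of mice, with 59 of 83 (71.1%) in 5w replicates 2 and 3 and the other 24 spread over 8 mice. FB5 made up 23 of 29 fibroblasts (79.3%) in 5w replicate 2 and 36 of 43 (83.7%) in 5w replicate 3. In 5w replicate 1 it was 3 of 218, and in 5w replicates 4 to 7 it was 0 of 20 fibroblasts together. At the other stages it was 4 of 257 fibroblasts at 0w, 4 of 259 at 2w, 9 of 289 at 8w, of which 8 were in 8w replicate 1, and 4 of 660 at 11w. Thus 62 of the 83 cells (74.7%) were at 5w, but 59 of these 62 came from replicates 2 and 3.

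Both of these mice, and no other, were on the plate lettered F here (the cell names give 12 plates, A to L). On plate F, 59 of 72 fibroblasts were FB5, a share of 81.9% (exact 95% interval 71.1 to 90%), against 24 of 1703 fibroblasts (1.41%, 0.905 to 2.09%) on the other plates. The intervals cover counting error only. Plate F held 235 cells, with 72 fibroblasts, 63 macrophages, 45 T cells, 37 cells of the type GN (not explained in the labels), 18 endothelial cells and 0 cardiomyocytes. For 5w replicates 2 and 3, mouse, plate and subcluster therefore cannot be told apart from FB5 alone, and values of the macrophages, T cells and endothelial cells of plate F, which the naming of FB5 did not use, are set beside the results.

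**Figure D1:**
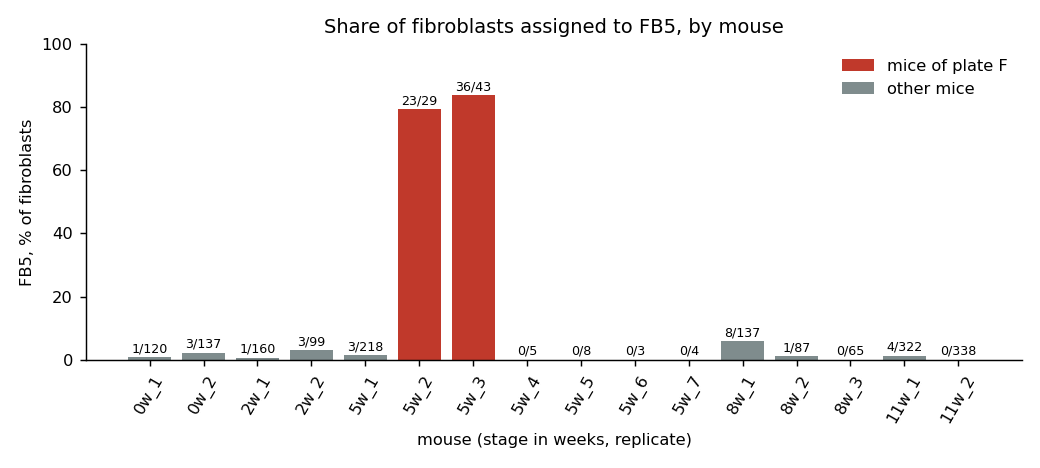
Bars give the share of each mouse's fibroblasts that the annotation calls FB5, in percent, with FB5 cells over fibroblasts printed above each bar. The 2 mice of plate F stand at 79.3% and 83.7%, and the next highest mouse, 8w replicate 1, at 5.84%.

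The FB5 cells had a median of 16906 non-mitochondrial UMIs (unique molecular identifiers, counts of captured RNA molecules) and 2210 genes per cell, against 18338 UMIs and 1551 genes in the other fibroblasts. Depth was uneven within FB5. The 8 cells of 8w replicate 1 had a median of 100282 UMIs, the 59 cells of plate F had 15041, and 1 cell of 5w replicate 3 with 305335 UMIs gave 30.6% of that mouse's FB5 sum. Among the 16 FB5 cells of 7 other mice, 1 cell each of 0w replicate 2, 2w replicate 1 and 5w replicate 1 had 162112, 149784 and 134489 UMIs. The pooled values of the 16 cells given below therefore rest mostly on these cells. Of the 59 plate F cells, 51 sat in a well position also used on another plate. No pair of cells had identical counts.

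The fibroblast label held against its markers. Decorin (Dcn), a small collagen-binding proteoglycan, had a UMI in 59 of 59 FB5 cells of plate F and 23 of 24 FB5 cells elsewhere. Type I collagen (Col1a1) had a UMI in 42 and 17 of these cells, and the growth factor receptor Pdgfra in 36 and 15. In the 63 macrophages of plate F, which do not make these, a UMI was present in 56 cells for Dcn, 10 for Col1a1 and 2 for Pdgfra, so the presence of Dcn alone did not set fibroblasts apart there, but its level did, with 174 and 458 CPM in macrophages. Expression is given below as CPM, which scales counts to a fixed total of non-mitochondrial UMIs, summed over the cells of a group. Dcn stood at 13614 and 11276 CPM in FB5 of 5w replicates 2 and 3. The 10 mice with at least 10 other fibroblasts had 8656 to 17947 CPM (median 14959.8) in those cells. Pdgfra (178 and 262 CPM against 139 to 413 CPM) and Col3a1 (2479.7 and 1998 CPM against 614 to 4227 CPM) also lay within the range of these mice.

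Markers of macrophages, endothelial cells and epicardium were low, and those of neutrophils, T cells and red cells were present. The 7 macrophage markers summed to 128 and 151 CPM in FB5 of 5w replicates 2 and 3, against 15396 and 17472 CPM in the macrophages of the same mice and 99.4 to 478 CPM in the other fibroblasts. The 7 endothelial markers summed to 352 and 169 CPM in FB5, against 216 to 1615 CPM in the other fibroblasts. The 6 epicardial or mesothelial markers summed to 26.3 and 21 CPM in FB5, against 8747 CPM in the 6 other fibroblasts of 5w replicate 2 and 26.7 to 477 CPM in the 10 mice. The 5 erythroid markers, mostly haemoglobin, took 22509 and 101782 CPM in FB5, against 7988 and 324722 CPM in the other fibroblasts of the same mice and 1849.8 to 103232 CPM in the 10 mice. The neutrophil markers summed to 209 and 171 CPM in FB5, above the 1.25 to 73.7 CPM in the other fibroblasts of the 10 mice, while the 13 other fibroblasts of plate F had 125 CPM in 5w replicate 2 and 107 CPM in 5w replicate 3, and the macrophages there 247 and 325 CPM. Off plate F they summed to 1.03 CPM in FB5 of 8w replicate 1 and 17.5 CPM in the 16 FB5 cells of the other mice. T cell and cardiomyocyte markers differed more and are described with the results they touch.

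FB5 was named by clustering on the same counts, so no difference between FB5 and other fibroblasts is tested, and every such difference is a description. The sums of FB5 in 5w replicates 2 and 3 were set against the sums of the other fibroblasts in each of the 10 mice. Of 11941 non-mitochondrial genes with at least 200 UMIs, 604 (5.06%) were above all 10 mice in both FB5 sums and 700 (5.86%) were below all 10. In the macrophages of the same 2 mice, compared the same way with macrophages of 14 mice, 490 (4.1%) of these genes were above and 233 (1.95%) below all of them. T cells had 6.39% above and 1.17% below, and endothelial cells 2.32% above and 5.3% below. Of the 604 genes above the range in FB5, 146 were also above it in macrophages (24.2% of the FB5 genes and 29.8% of the macrophage genes), and 389 (64.4%) were above it in none of macrophages, T cells and endothelial cells. Of the 700 below the range, 497 (71%) were below it in none of the other types. The other types had different mice with enough cells (14 for macrophages, 9 for T cells and 12 for endothelial cells), so these counts do not share one denominator of mice.

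With TMM factors (edgeR's scaling, which assumes that most genes do not differ) the median of all genes moved by -0.48 on the log2 scale and the counts became 223 above and 1362 below, and with CPM of all UMIs the median moved by 0.34 and the counts became 856 and 436. A modest difference thus depends on the scaling. Of the genes named below as above the range, Pi16, Entpd2, Dpt, Gsn, Axl, Nid1, Efemp1, Mmp2, Timp2, Sod3, Htra3, Fbln1, Cad, Tsc22d3, Errfi1, Lrp1 and Cd3d lay within it with TMM factors. Without the deepest FB5 cell, Entpd2, Timp2, Hacl1, Pcdhb20, Evc2 and Peo1 lay within it, and with a mean over cells in place of the sum Entpd2, Dpt, Col14a1, Hacl1, Evc2, Peo1, Cad and Cd3d did. Of the genes named below as under the range, Mb and Apod lay within it with CPM of all UMIs.

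Several genes of adventitial and resting fibroblasts were above the range. Of the 17 genes of this list, 4 were above all 10 mice and 0 below, where 5.06% of all genes were above, with a median log2 difference of 0.36 against -0.07 over all genes. Without the single deepest FB5 cell the list median was 0.00, against -0.04 over all genes, with 3 genes above. With a mean over cells in place of the sum, so that each cell had equal weight, it was 0.63, against -0.02 over all genes, with 4 genes above. The shift of the list thus depended on how the cells were weighted. With TMM factors the list median was -0.24, against -0.55 over all genes, and against 5w replicate 1 alone it was -0.07, against -0.28 over all genes. The list summed to 10609 and 12976 CPM in FB5, against 14014 and 8956 CPM in the other fibroblasts of the same mice. In those of 5w replicate 1 it summed to 12841 CPM. Off plate F it was 11637 against 10769 CPM in 8w replicate 1, and 6425 CPM in the 16 other FB5 cells, against 10156 CPM. Cd248 (endosialin, chromosome 19, 5068078 to 5070682, GRCm38), a transmembrane glycoprotein of stromal cells and pericytes that is not on that list, stood at 440.3 and 436 CPM in FB5 of 5w replicates 2 and 3. The other fibroblasts of the 10 mice lay at 2.24 to 74.5 CPM (median 29.3), and those of 5w replicate 1 at 44.8 CPM. Both FB5 sums were thus more than 5 times the highest other mouse. A UMI of Cd248 was present in 23 of 59 FB5 cells and 7 of 63 macrophages of plate F. In the other fibroblasts of the 10 mice the share was 10.8%. The cell with most Cd248 gave 42.1% of its UMIs. Of the 13 other fibroblasts of plate F, 5 had a UMI of Cd248, a share of 38.5% against 39.0% of the FB5 cells. After thinning of each cell to the same number of UMIs, 2 of 12 did, against 15 of 53 FB5 cells. The exact intervals of these shares, 2.09 to 48.4% and 16.8 to 42.3%, overlapped. Detection of Cd248 thus did not set FB5 apart from the few other fibroblasts of its plate. Off plate F, Cd248 stood at 161 CPM in FB5 of 8w replicate 1 and 17.5 CPM in the 16 FB5 cells of the other mice. In the macrophages of plate F it stood at 4.39 and 4.56 CPM.

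Cd34, a cell-surface sialomucin of stem, endothelial and adventitial cells, stood at 1886 and 1841 CPM in FB5, against 241 to 832 CPM (median 690.3) in the other fibroblasts. It had a UMI in 54 of 59 FB5 cells, against 66.3% of the other fibroblasts and 20 of 63 macrophages of plate F. Of the 13 other fibroblasts of plate F, 11 had one, and after thinning 8 of 12 did, against 43 of 53 FB5 cells. Igfbp4, a secreted binder of insulin-like growth factors, stood at 1437 and 1133 CPM, against 217 to 569 CPM. Entpd2, an enzyme that breaks down extracellular ATP, stood at 474 and 416 CPM, against 80.5 to 304 CPM, and was higher off plate F as well, with 425 CPM in FB5 of 8w replicate 1 and 513 CPM in the 16 FB5 cells of the other mice, against 215 and 217 CPM in the other fibroblasts of the same mice. Pi16 (peptidase inhibitor 16, chromosome 17, 29317680 to 29330593, GRCm38), a secreted protein of adventitial fibroblasts, stood at 958 and 1798 CPM, against 254 to 893 CPM (median 411). A UMI was present in 51 of 59 FB5 cells, against 69.6% of the other fibroblasts and 26 of 63 macrophages of plate F. It was present in 11 of the 13 other fibroblasts of plate F, and after thinning in 4 of 12, against 40 of 53 FB5 cells. A single FB5 cell gave 46.1% of the Pi16 UMIs of FB5 on plate F, and with TMM factors Pi16 lay within the range. Off plate F, Pi16 was not high, with 322 CPM in FB5 of 8w replicate 1 and 248 CPM in the 16 FB5 cells of the other mice. The list is not uniform. Ly6a (765 and 1081 CPM against 242 to 2229 CPM), which encodes the surface protein Sca-1, Dpep1 (868 and 925 CPM against 179.7 to 1261 CPM) and the apolipoprotein Apoe (901 and 1515 CPM against 857 to 3695 CPM) lay within the range of the other fibroblasts.

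Dermatopontin (Dpt), which binds decorin and collagen, stood at 1667 and 3329.7 CPM in FB5, against 295 to 1365 CPM, and gelsolin (Gsn), which severs actin filaments, at 13099.9 and 16946 CPM, against 3470.1 to 11696 CPM. Both are fibroblast identity genes, a list of 12 with 2 above the range and 0 below. With TMM factors both lay within the range. The receptor tyrosine kinase Axl, which binds Gas6, stood at 891 and 2522 CPM, against 112 to 686 CPM (median 322), with a UMI in 52 of 59 FB5 cells, against 48.5% of the other fibroblasts. It was higher off plate F too, with 938 CPM in FB5 of 8w replicate 1 and 633 CPM in the 16 FB5 cells of the other mice, against 312 and 374 CPM in the other fibroblasts of those mice, and with TMM factors it lay within the range of the 10 mice.

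**Figure D2:**
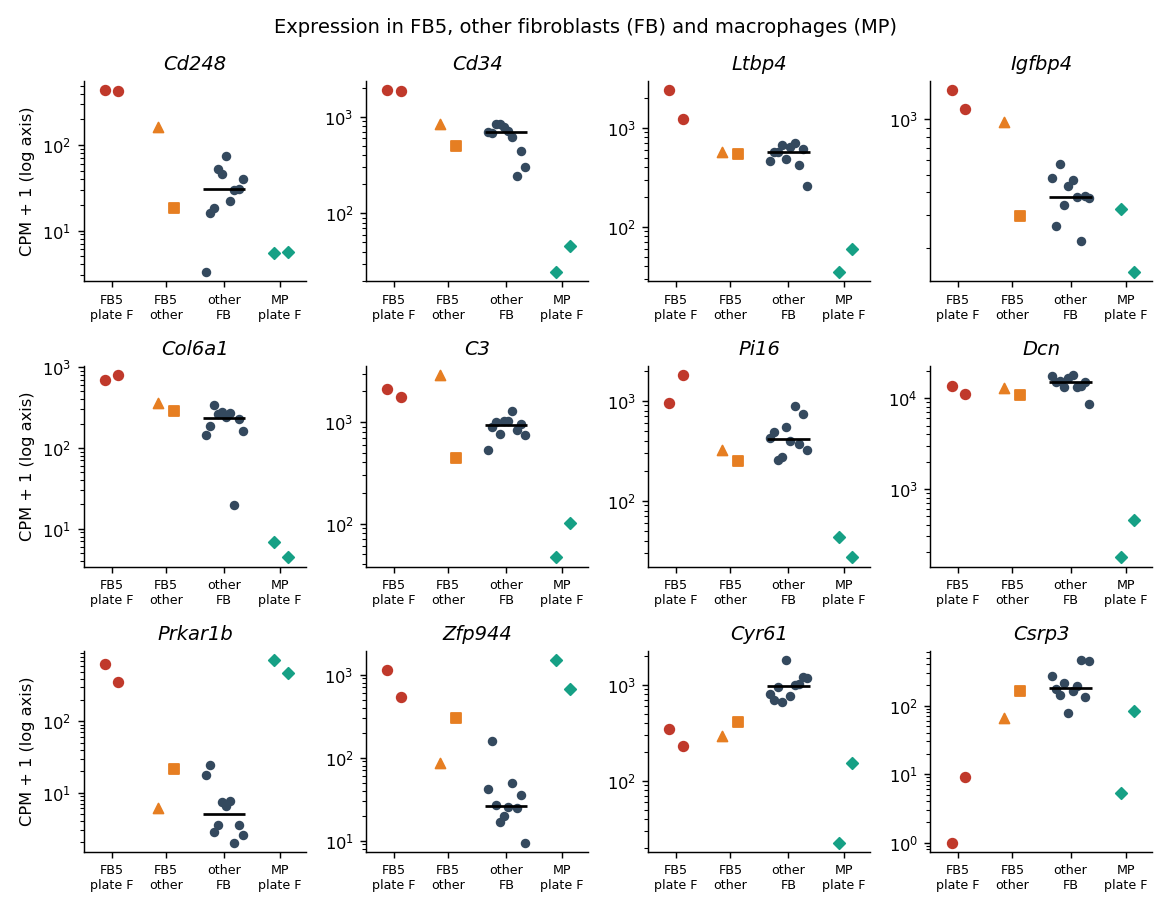
Each panel gives 1 gene in CPM plus 1 on a log axis. Red circles are FB5 of 5w replicates 2 and 3, the orange triangle is FB5 of 8w replicate 1, the orange square the 16 FB5 cells of 7 other mice, dark points the other fibroblasts of 10 mice in the order 0w to 11w with their median as a line, and green diamonds the macrophages of 5w replicates 2 and 3. Cd248 to Pi16 are high in the FB5 of plate F and low in its macrophages, while Prkar1b and Zfp944 are high in both.

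Matrix lists differed from each other, and each has few genes for a background of 5.06% of all genes above the range and 5.86% below. Matricellular proteins had 1 of 19 above and 2 below, with a median difference of -0.61. Fibrillar collagens and their assembly proteins had 2 of 14 genes above the range and 0 below, and a median difference of 0.90. The 2 were Col14a1, a fibril-associated collagen, with 669 and 562 CPM against 71.3 to 334 CPM, and Col6a1, a chain of the beaded-filament collagen VI, with 698 and 789.8 CPM against 18.8 to 339 CPM. Col1a1 (755 and 301 CPM against 165 to 709 CPM) and Col1a2 (2001 and 516 CPM against 508 to 2093 CPM) were not outside the range. Of the 11 basement membrane genes, Hspg2 (perlecan), with 1066 and 535 CPM against 64.3 to 272 CPM, and Nid1 (nidogen), with 1089 and 1083 CPM against 184 to 739 CPM, were above it. Hspg2 stood at 51.6 CPM in FB5 of 8w replicate 1 and 20.6 CPM in the other 16 cells, so that its high level was seen on plate F only among the FB5 groups compared.

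Elastic fibre and microfibril genes had 2 of 12 above the range. Ltbp4, which holds latent TGF-beta in the matrix, stood at 2404 and 1242 CPM, against 256 to 706 CPM, and was also high in the endothelial cells of 5w replicate 3 (1318 CPM). Efemp1 (fibulin-3) stood at 255 and 431 CPM, against 17 to 224 CPM, but at 2822 and 998 CPM in the 6 and 7 other fibroblasts of the same mice. Among metalloproteinases and their inhibitors, Mmp2 (gelatinase A) with 1035 and 1168 CPM against 264 to 783 CPM and its inhibitor Timp2 with 912 and 1708 CPM against 292 to 708 CPM were above the range, but without the deepest FB5 cell the median of this list was -0.07, against 0.39 with it. Both genes came back into it with TMM factors, and Timp2 did so without the deepest FB5 cell too. Complement C3, the central protein of the complement cascade, stood at 2090.4 and 1756 CPM, against 529.9 to 1288 CPM, and at 2885 CPM in FB5 of 8w replicate 1, against 1018 CPM in its other fibroblasts. It was higher still in the 6 other fibroblasts of 5w replicate 2 (11681 CPM). The extracellular superoxide dismutase Sod3 (374 and 498 CPM against 69.9 to 292 CPM), the secreted protease Htra3 (1193 and 911 CPM against 156 to 683 CPM) and fibulin-1 (Fbln1, 851 and 979 CPM against 206 to 658 CPM) were above the range as well, and all of these lay within it with TMM factors.

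Genes of stressed fibroblasts lay within or below the range. Of the 6 matrifibrocyte and late fibroblast genes with enough UMIs, 2 were below all 10 mice and 0 above, with a median of -3.07. Clusterin (Clu), a secreted chaperone, stood at 3.09 and 1 CPM, against 21.6 to 331 CPM (median 92.6). Comp, a cartilage matrix protein, had 0 UMIs in 59 FB5 cells, which allows a share of cells with a UMI of up to 5.08% and levels of up to 4.63 and 3.01 CPM in 5w replicates 2 and 3, against 0.197 to 457 CPM (median 3.17) in the other fibroblasts, so it was also near 0 in part of the mice. Cilp, an intermediate layer protein of cartilage and of scar, differed between the FB5 sums, with 433 and 9.02 CPM, against 16.3 to 1311 CPM. Periostin, the classical gene of activated fibroblasts, stood at 595 and 212 CPM in FB5, against 66.2 to 2277 CPM (median 1077). The 5w replicate 1 fibroblasts were at the low end with 66.2 CPM, so FB5 of plate F held more Postn than these other 5w fibroblasts. A UMI of Postn was present in 16 of 59 FB5 cells, against 47.6% of the other fibroblasts, and 8w replicate 1 had 0 in its 8 FB5 cells. The smooth muscle actin gene Acta2 was low in both (1.54 and 7.02 CPM against 3.07 to 50.9 CPM), and Cthrc1 and Wif1 had at most 1 UMI in FB5 of plate F. The matricellular gene Cyr61 (now Ccn1), a target of stretch and YAP signalling, stood at 348 and 228 CPM, against 653 to 1788 CPM (median 980.3), below all 10 mice and at 294 CPM in FB5 of 8w replicate 1 and 414 CPM in the 16 FB5 cells of the other mice. Its relative Ctgf (Ccn2) lay within the range (405 and 116 CPM against 85 to 1429 CPM).

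Against the other well-sampled 5w mouse, FB5 of plate F was low in inflammatory transcripts. The 14 interferon response genes summed to 2296 and 1979 CPM in FB5, against 12196 CPM in the 215 other fibroblasts of 5w replicate 1, and their median difference from that mouse was -2.53, against -0.28 over all genes. The sum in 5w replicate 1 was the highest of the 10 mice, whose range was 1154 to 12196 CPM, and FB5 lay within that range. The macrophages showed the same order, with 3265 and 1779 CPM on plate F against 14940.1 CPM in 5w replicate 1. Chemokines and cytokines summed to 4119 and 5501 CPM in FB5, against 25190.4 CPM in 5w replicate 1 and 3830.5 to 25190.4 CPM in the 10 mice. Ccl2, which attracts monocytes, stood at 1290.1 and 1740.0 CPM in FB5, against 8428 CPM in 5w replicate 1. Cxcl2, which attracts neutrophils, was below all 10 mice (12.4 and 18 CPM against 31.8 to 274 CPM) and in the same mice's macrophages stood at 2266 and 1739 CPM. The 20 fibroblasts of 5w replicates 4 to 7, pooled, had 1579 CPM of the interferon genes and 2634 CPM of the chemokines. The few other fibroblasts of 5w replicates 2 and 3 were also below 5w replicate 1. They had 3499 and 1838 CPM of the interferon genes and 332 and 3569 CPM of the chemokines and cytokines. Within both mice FB5 was thus the higher group for chemokines and cytokines, and for interferon genes the order differed between the mice. Off plate F, FB5 of 8w replicate 1 had 6796 CPM of the chemokines and cytokines, against 8681 CPM in its other fibroblasts. The 16 FB5 cells of the other mice had 21484 CPM, against 14063 CPM in the other fibroblasts of those mice. For the interferon genes these values were 2446 against 2234 CPM and 2448 against 6619 CPM.

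Cardiomyocyte transcripts were among the lowest in FB5 of plate F. The 12 genes with the largest negative difference were Csrp3, Mpp6, Trdn, Myoz2, Ptgds, Sh3bgr, Nedd1, Clu, Ankrd1, Mcee, Abcc9 and Stam2. Of the 8 cardiomyocyte markers, 7 were below all 10 mice and 0 above, with a median difference of -2.60. They summed to 654 and 1199.8 CPM in FB5, against 2362 to 6618 CPM in the other fibroblasts. Csrp3, a muscle LIM protein of the Z disc, stood at 0 and 8.02 CPM, against 78.2 to 456 CPM (median 181). Ankrd1, a stress-induced muscle protein, stood at 9.27 and 24.1 CPM, against 71.2 to 1944 CPM (median 496). Triadin (Trdn), of the calcium release complex, had 0 UMIs in all 59 FB5 cells, against 12.3 to 88.4 CPM. The alpha myosin heavy chain Myh6 stood at 57.2 and 98.2 CPM, against 301 to 823 CPM, and myoglobin (Mb) at 259.6 and 253 CPM, against 301 to 1071 CPM. Muscle energy genes were below the range in 11 of 17 and nuclear genes of oxidative phosphorylation in 15 of 29, with 0 above in both. These counts depended on the scaling. With CPM of all UMIs, 6 muscle energy genes, 4 oxidative phosphorylation genes and 5 cardiomyocyte markers were below, and 1 muscle energy gene was above. With TMM factors 12, 21 and 8 were below and 0 above. Oxidative phosphorylation genes summed to 6049 and 6134 CPM, against 8374 to 14554 CPM. Part of this list is muscle-specific, such as Cox6a2 (9.27 and 61.1 CPM against 202 to 866 CPM) and Cox7a1 (26.3 and 68.2 CPM against 250.4 to 898 CPM).

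Against other fibroblasts of the same mouse, the order of the muscle lists differed between mice and with the cells compared. The cardiomyocyte markers summed to 654 CPM in FB5 of 5w replicate 2, against 508 CPM in its 6 other fibroblasts. In 5w replicate 3 they summed to 1199.8 CPM in FB5, against 2661 CPM in its 7 other fibroblasts and 655 CPM in the 6 of these called FB1 to FB4, so 1 cell turned the order there. In 8w replicate 1 they summed to 1512 CPM in FB5, against 3675 CPM in all other fibroblasts and 2656 CPM in FB1 to FB4. Muscle energy genes were lower in FB5 in each of these mice, with 1055, 1162 and 1655 CPM in FB5 of 5w replicate 2, 5w replicate 3 and 8w replicate 1, against 1479.8, 3857 and 3423 CPM in all their other fibroblasts. Oxidative phosphorylation genes summed to 6872 CPM in FB5 of 8w replicate 1, and the other fibroblasts of 5w replicate 2, 5w replicate 3 and 8w replicate 1 had 9882, 7747 and 10062 CPM, each above FB5 of the same mouse. In 5w replicate 3 the 6 FB1 to FB4 cells had 5020 CPM, below the 6134 CPM of FB5. With erythroid marker genes left out of the total they had 8101 CPM, above the 6829 CPM of FB5. By gene, with FB1 to FB4 of 5w replicate 3 and 8w replicate 1 as the comparison, the median log2 difference was 0.11 for cardiomyocyte markers, 0.06 for oxidative phosphorylation and -0.01 for muscle energy genes, against 0.13 over all genes.

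Macrophages of plate F had 4.39 and 83.2 CPM of Csrp3, against 54.6 to 1752 CPM in macrophages of 14 mice, and 79 and 173 CPM of Myh6, against 316 to 9247 CPM. Plate F held 0 cardiomyocytes, while plates G and H, which hold 5w replicates 4 to 7, had 1163 of 1243 and 799 of 852 cells as cardiomyocytes. Off plate F the FB5 cells were not uniformly low, with a marker sum of 5229.8 CPM in the 16 other FB5 cells, against 3874 CPM in the other fibroblasts of those 7 mice. That sum rests mostly on the few deep cells among the 16. The part that the absence of myocytes on the plate has in the low levels was not tested. Across 1931 genes with a median of at least 50 CPM in both types, the differences of FB5 and of macrophages had a Pearson r of 0.52 and a Spearman rho of 0.42. These are correlations across genes, which are not independent, in cells of the same mice and plate.

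**Figure D3:**
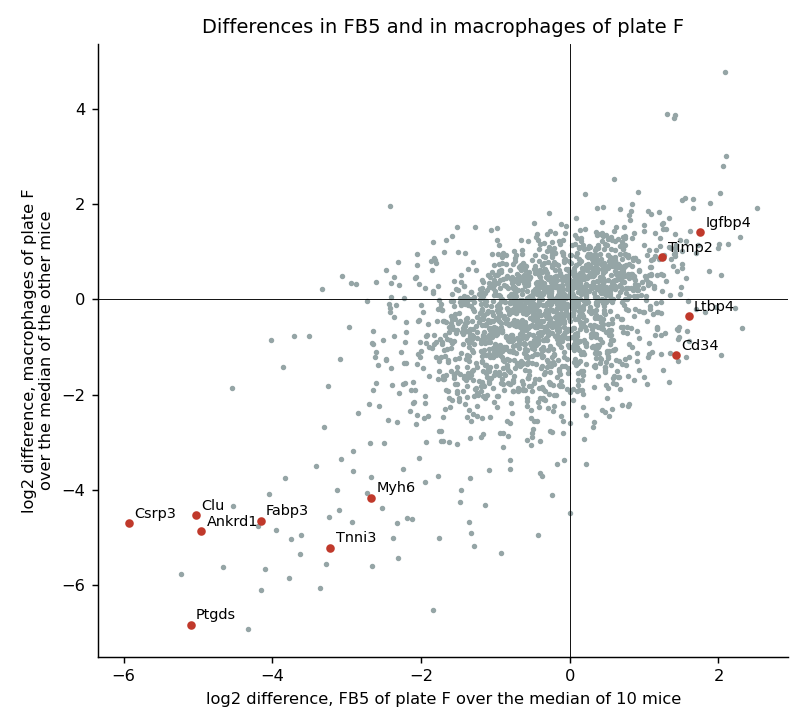
Each point is 1 of 1931 genes, with the log2 difference of FB5 of plate F over the median of 10 mice on the x axis and the same for macrophages of plate F over the median of the other mice on the y axis. Muscle transcripts, Clu and Ptgds are low in both, whereas Cd34 is high in FB5 and low in macrophages.

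Other genes below the range in FB5 were Ptgds, a prostaglandin D synthase, with 1.54 and 2 CPM against 25.4 to 182 CPM (median 93.9), the pericyte regulator of G protein signalling Rgs5 with 6.18 and 4.01 CPM against 12.1 to 347 CPM, and apolipoprotein D (Apod) with 131 and 25.1 CPM against 153 to 1224 CPM. All of these were also lower off plate F than in the other fibroblasts of the same mice. Apod stood at 51.6 CPM in FB5 of 8w replicate 1 and 82.5 CPM in the 16 FB5 cells of the other mice, against 153 and 679 CPM in the other fibroblasts of the same mice. In macrophages of plate F, Ptgds was at 2.93 and 2.28 CPM, against a median of 409 CPM in macrophages of the other mice.

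The largest positive differences in FB5 of plate F belonged to genes that were also high in the other cells of that plate. Prkar1b, a regulatory subunit of protein kinase A (chromosome 5, 139017306 to 139150001, GRCm38), stood at 632 and 358 CPM in FB5, against 0.989 to 23.1 CPM (median 3.99) in the other fibroblasts of 10 mice. It had a UMI in 54 of 59 FB5 cells. The 6 and 7 other fibroblasts of the same 2 mice had 715 and 104 CPM, and their macrophages 717 and 483 CPM. Off plate F it was low in FB5, at 5.16 CPM in FB5 of 8w replicate 1 and 20.6 CPM in the 16 FB5 cells of the other mice. Zfp944, a zinc finger gene (chromosome 17, 22337989 to 22361400, GRCm38), stood at 1126 and 540.3 CPM in FB5, against 8.47 to 157 CPM (median 25.2), and at 1481 and 670.0 CPM in the macrophages. The neutrophil calprotectin genes S100a8 (95.8 and 83.2 CPM against 0.132 to 37.1 CPM) and S100a9 (104 and 76.2 CPM against 1.02 to 32.1 CPM) showed the same, with 107 and 107 CPM of S100a9 in macrophages. These genes separate plate F from the other plates in more than one cell type, and what part of them belongs to FB5 cannot be told apart from plate and mouse.

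Among the 12 highest genes by size of difference, several rested on few cells. Hacl1 (7 cells), Pcdhb20 (2), Cables2 (5), Evc2 (9), Peo1 (5), Lnx2 (6) and Cad (9) had a UMI in fewer than 10 of 59 FB5 cells, and 1 cell gave between 35.3% and 80.9% of the UMIs of each. By contrast Prkar1b, Lck, Zfp944, S100a9 and Lat, the other 5, were each found in 37 or more cells. A set of genes was therefore taken, after their values were seen, that had a UMI in at least 30 of the 59 cells and lay above all 10 mice. Of these 71 genes, 60 differed by at least 2-fold, and 42 of the 60 were above the range in none of macrophages, T cells and endothelial cells. Detection in FB5 itself chose these genes, so the counts describe the set and support nothing. The matching set below the range, with a UMI in at least 30% of the other fibroblasts, was larger, with 125 genes, of which 100 differed by at least 2-fold and 40 of the 100 were below the range in none of the other types. The 42 include, beside Axl, Hspg2, Igfbp4, Pi16, Col6a1, Col14a1, Cd34 and Mmp2 above, Slc36a1, a lysosomal amino acid transporter (81.9 and 107 CPM against 0 to 14.6 CPM), the transcription factor Stat3 (511 and 382 CPM against 45.1 to 186 CPM), Tsc22d3, the glucocorticoid-induced leucine zipper (1310.1 and 595 CPM against 54.4 to 578 CPM), Errfi1, a feedback inhibitor of EGF receptors (449.6 and 563 CPM against 117 to 312 CPM), Lrp1, an endocytic receptor (559 and 1114 CPM against 135 to 496 CPM), and Fhl1, a LIM-domain protein (417 and 509 CPM against 87.5 to 241 CPM).

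T cell transcripts were higher in FB5, on plate F and off it, than in the other fibroblasts of mice off plate F. The 6 T cell markers summed to 138 and 136 CPM in FB5 of 5w replicates 2 and 3, against 0 to 27.5 CPM in the other fibroblasts of 10 mice and 2442 and 2728 CPM in the T cells of the same mice. In 5w replicates 2 and 3 these markers summed to 239 and 130 CPM in macrophages and to 100 and 48.6 CPM in the few other fibroblasts. Off plate F they summed to 326 CPM in FB5 of 8w replicate 1, against 27.5 CPM in its other fibroblasts, and to 520.4 CPM in the 16 other FB5 cells, against 12.1 CPM. Lck, the kinase of the T cell receptor, stood at 100.4 and 79.2 CPM in FB5, against 0 to 7.44 CPM, and at 155 CPM in FB5 of 8w replicate 1 and 102 CPM in the 16 FB5 cells of the other mice. Cd3d, a chain of the receptor complex, stood at 17 and 27.1 CPM, against 0 to 9.84 CPM, and at 82.6 CPM in FB5 of 8w replicate 1 and 381 CPM in the 16 FB5 cells of the other mice. Macrophages of plate F had 77.6 and 59.3 CPM of Lck, so its level in FB5 there was near that of another cell type that does not use it.

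Counted per cell after each cell was thinned to 5000 UMIs, 54.7% (29 of 53) of FB5 cells on plate F had a UMI of any T cell marker, against 41.7% (5 of 12) of the other fibroblasts there, 46.2% (24 of 52) of macrophages, 31.2% (5 of 16) of endothelial cells and 88.9% (32 of 36) of T cells. Off plate F it was 45% (9 of 20) of FB5 cells (exact 95% interval 23.1 to 68.5%), against 3.59% (39 of 1087) of the other fibroblasts of the same mice (2.56 to 4.87%) and 6.41% (90 of 1405) of their endothelial cells. Cells with fewer UMIs were left out, 6 of 59 and 4 of 24 FB5 cells and 169 of 1256 other fibroblasts. Without thinning the shares of FB5 cells were 84.7% on plate F and 50% off it, against 9.87% of the other fibroblasts, at median depths of 15041, 32750.0 and 23372.5 UMIs. Doublets were not called, and their part, and that of RNA shared within a plate, was not tested.

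**Figure D4:**
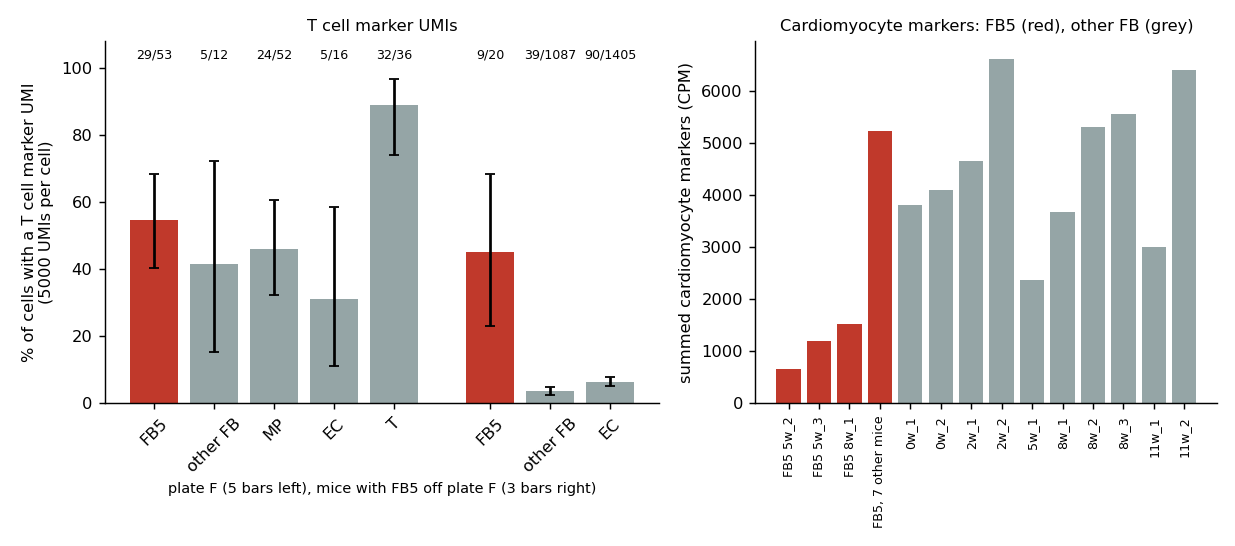
Left, the share of cells with a UMI of any of 6 T cell markers after thinning to 5000 UMIs per cell, with exact 95% binomial intervals and cells over cells printed above, for plate F (5 bars) and for the mice with FB5 cells off plate F (3 bars), where FB5 stands at 45% and the other fibroblasts at 3.59%. Right, the summed CPM of 8 cardiomyocyte markers in 4 sums of FB5 cells (red) and in the other fibroblasts of 10 mice (grey).

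By list, FB5 of plate F had the highest medians in fibrillar collagens (0.90), basement membrane (0.73), small leucine-rich proteoglycans (0.70) and complement (0.69) among the lists of matrix and signalling genes, against -0.07 over all genes. With TMM factors these medians were 0.37, 0.17, 0.08 and 0.10, against -0.55 over all genes. Within mice, against FB1 to FB4, they were 0.83, 0.18, -0.38 and 0.32, against 0.13 over all genes. The proteoglycans summed to 21846 and 16405 CPM in FB5, within the 12594 to 22359 CPM of the 10 mice. Complement genes summed to 7841 and 8928 CPM, against 21080 and 6444 CPM in the other fibroblasts of 5w replicates 2 and 3. Off plate F, FB5 of 8w replicate 1 had 8919 CPM, against 5859 CPM in its other fibroblasts. The 16 FB5 cells of other mice had 3523 CPM, against 6057 CPM. The 20 mesenchymal and cardiac transcription factors summed to 1451 and 1746 CPM, against 653 to 1187 CPM, although 0 of the 18 with enough UMIs was above the range by itself. The other fibroblasts of 5w replicates 2 and 3 had 1649 and 801 CPM, so FB5 was not the higher group in 5w replicate 2. In lists of 7 to 16 genes a count of 0 is close to the background shares of 5.06% above and 5.86% below, and it was the count for TGF-beta and BMP signalling (15 genes), Wnt modulators (7), MHC class I presentation (10), ER stress (16), cell cycle (10) and collagen processing (15). With TMM factors 1 gene each of TGF-beta and BMP signalling and of collagen processing and 2 ER stress genes were below the range.

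**Figure D5:**
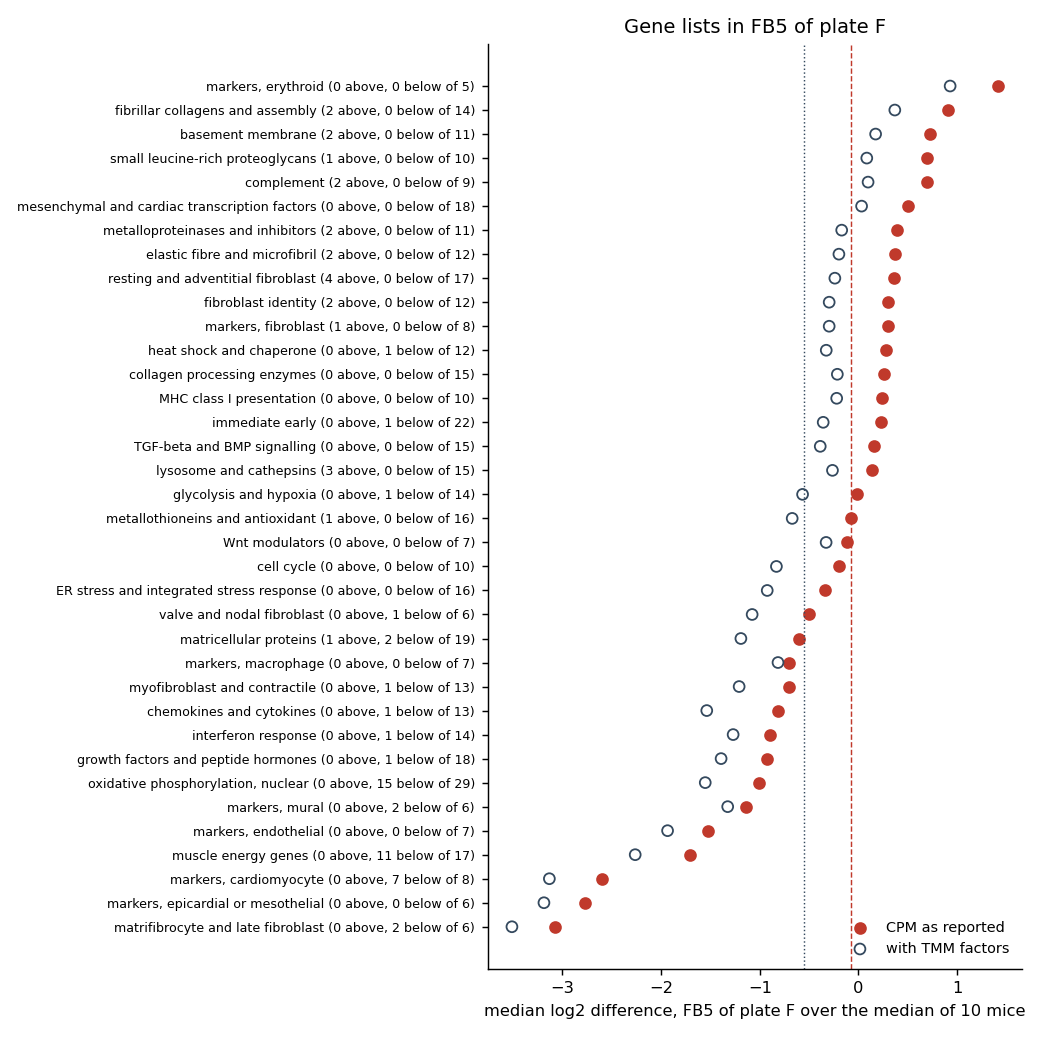
The median log2 difference of each gene list with at least 5 measured genes, FB5 of 5w replicates 2 and 3 over the median of the other fibroblasts of 10 mice, as CPM (filled) and with TMM factors (open). The dashed and dotted lines give the median of all genes, -0.07 and -0.55. Lists of collagens, basement membrane, proteoglycans and elastic fibres lie to the right of the lines, and matricellular, cardiomyocyte, muscle energy and matrifibrocyte genes to the left of them.

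The 24 FB5 cells off plate F correlated with those on it within the range of other fibroblasts. Over 2815 genes, the log2 levels of FB5 in 5w replicate 2 had a Pearson r of 0.66 with FB5 of 5w replicate 3. Its r was 0.57 with the sum of the 24 FB5 cells off plate F and 0.50 with the 8 of 8w replicate 1 alone, against 0.52 to 0.67 with the other fibroblasts of each of the 10 mice. FB5 of 5w replicate 3 had 0.57 with the 24 cells and 0.51 with the 8, against 0.50 to 0.65 with the other fibroblasts of the 10 mice. These values are across genes, which are not independent, and the sums differ in the number and depth of their cells.

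Within mice, 5w replicate 3 (36 FB5 and 6 FB1 to FB4 cells) and 8w replicate 1 (8 and 119) had at least 5 cells of each kind. Of 10349 genes with at least 50 UMIs, 1116 (10.8%) were at least 2-fold higher in FB5 in both mice and 839 (8.11%) at least 2-fold lower. With erythroid marker genes left out of the total, 978 were higher and 1082 lower, and with TMM factors 835 and 962. The median log2 difference of all genes was 0.13 as reported, -0.045 without erythroid genes and -0.11 with TMM factors. Which direction had more genes thus depends on the scaling. With 6 or 8 cells on one side many genes were at 0 there, and the counts moved with several choices, for example to 463 and 274 over 3 mice when FB6 to FB10 were added to the other fibroblasts. The 12 highest genes were Xrcc2, Snapc3, Pogk, Peo1, Slc25a36, Cux2, Ccdc97, Cables2, Rexo1, Fn1, Chchd7 and Pcdhb20, with mean log2 differences of 5.38 to 7.13. Apart from Fn1, they had a UMI in at most 17 of the 59 plate F cells. Fibronectin (Fn1), which cells assemble into early matrix, had 335 against 0 CPM in 5w replicate 3 and 531 against 87.2 CPM in 8w replicate 1, and a UMI in 24 of 59 FB5 cells.

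The 12 lowest within mice were Myct1, Omd, Trak2, Lrrc36, Ate1, Kctd10, Med8, Vprbp, Abhd8, Snx9, H1f0 and Triqk, with mean log2 differences of -6.12 to -5.21. Osteomodulin (Omd), a keratan sulphate proteoglycan, had 10.0 against 358 CPM in 5w replicate 3 and 0 against 106 CPM in 8w replicate 1. Pi16 was higher in FB5 of 5w replicate 3 and not of 8w replicate 1, with 1798 against 537 CPM in 5w replicate 3 and 322 against 425 CPM in 8w replicate 1. Cd34 had 1841 against 1366 CPM in 5w replicate 3 and 841 against 684 CPM in 8w replicate 1. Erythroid RNA in the total lowers the values of the FB1 to FB4 cells of 5w replicate 3. Without erythroid marker genes in the total, their cardiomyocyte marker sum went from 655 to 1056 CPM, and that of FB5 from 1199.8 to 1336 CPM. A difference of the size of that of Cd34 in this mouse thus depends on the total used. Col3a1 had 1998 against 727 CPM in 5w replicate 3 and 1591 against 657 CPM in 8w replicate 1, and Postn 212 against 0 CPM in 5w replicate 3 and 0 against 90.7 CPM in 8w replicate 1. Lysosomal genes had a median log2 difference of 0.97 and collagen processing enzymes of 1.69, against 0.13 over all genes.

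The stage comparison took all fibroblasts of a mouse, whatever their subcluster. In 5w replicates 2 and 3 most of these cells were FB5, so for genes that set FB5 apart the test is not independent of its naming, while the tests in endothelial cells and macrophages are. Sums per mouse of the 12 mice with at least 10 fibroblasts were fitted with edgeR's quasi-likelihood test, two-sided, with Benjamini-Hochberg adjustment, and 5w (replicates 1 to 3) was set against the mean of the other stages. Of 15427 genes, 1 was higher at 5w (0.00648%) and 0 lower at an adjusted p under 0.05, with 2002 genes at an unadjusted p under 0.05 and 362 calls by DESeq2. The gene was Prkar1b, with a log2 fold change of 5.73 (SE 0.75, adjusted p = 0.0169). Its TMM-scaled values were 4.17, 301 and 188 CPM in 5w replicates 1 to 3, against 0.69 to 15.2 CPM at the other stages, so the difference was in the 2 mice of plate F and not in 5w replicate 1. Zfp944 (log2 3.44, SE 0.66, edgeR adjusted p = 0.103), Cd248 (2.92, SE 0.61, adjusted p = 0.103), Evc2 (3.71, SE 0.84, adjusted p = 0.103) and Pi16 (1.01, SE 0.36, adjusted p = 0.247) did not pass. Cd248 stood at 29, 174 and 211 CPM in 5w replicates 1 to 3, against 1.48 to 52.9 CPM in the 9 mice of the other stages. Leaving out any 1 of 0w replicate 1, 0w replicate 2, 2w replicate 1, 5w replicate 2, 5w replicate 3, 11w replicate 1 and 11w replicate 2 left 0 genes (1189 to 2368 at an unadjusted p under 0.05), leaving out 2w replicate 2 or 8w replicate 1 gave 5 and 3, and leaving out 5w replicate 1 gave 130. Without both mice of plate F, 0 genes passed (757 at an unadjusted p under 0.05) and Cd248 had a log2 difference of 0.69.

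In endothelial cells (5w replicates 1, 3, 5 and 7) and macrophages (all 7 mice at 5w), the same fit was made on cells that FB5 was not named from. In endothelial cells 50 of 14532 genes were higher at 5w (0.344%) and 0 lower by edgeR, and in macrophages 35 of 13752 genes were higher (0.255%) and 1 lower (0.00727%). Zfp944 was among them in both, with a log2 fold change of 3.07 (SE 0.65, edgeR adjusted p = 0.0496) in endothelial cells and of 4.06 (SE 0.72, adjusted p = 0.0367) in macrophages. Prkar1b passed in macrophages (4.59, SE 0.95, edgeR adjusted p = 0.0477) and did not in endothelial cells (3.53, SE 0.92, adjusted p = 0.0874). Its macrophage values were 288 and 217 CPM in 5w replicates 2 and 3 and 122 CPM in 5w replicate 7, against 0 to 12.6 CPM in the 4 other 5w mice. Leaving out 1 mouse left 0 to 93 endothelial genes, with 0 without any 1 of 0w replicate 1, 5w replicate 3, 5w replicate 5, 8w replicate 1, 8w replicate 2, 11w replicate 1 and 11w replicate 2 (1495 to 1752 at an unadjusted p under 0.05), 93 without 2w replicate 1, 26 without 2w replicate 2 and 28 without 5w replicate 7. It left 0 to 56 macrophage genes, with 0 without any 1 of both 0w mice, both 2w mice, 8w replicate 1 and both 11w mice (1459 to 1611 at an unadjusted p under 0.05), 14 without 5w replicate 2 and 56 without 5w replicate 1 or 4.

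Set against the 5 other 5w mice, macrophages of plate F had 36 genes higher (0.262%) and 75 lower (0.545%) of 13752 by edgeR. Ptgds was lower by 8.96 on the log2 scale (SE 1.56, adjusted p = 0.0049), with 1.18 and 1.02 CPM in 5w replicates 2 and 3, against 11.6 CPM in 5w replicate 1 and 561 to 934 CPM in 5w replicates 4 to 7, whose plates G and H held mostly cardiomyocytes. Sh3bgr, Adprhl1, Gbas and Ankrd23 were lower as well, with edgeR adjusted p-values of 0.0044 to 0.0266. They stood at 0 to 1.54 CPM on plate F and 2.69 to 14.4 CPM in 5w replicate 1, against 28.7 to 436 CPM in 5w replicates 4 to 7. Cardiomyocyte genes such as Myh6, Tnni3, Myl2 and Ttn were also among the 75, with their high values in 5w replicates 4 to 7. For these genes the comparison thus mostly set the mice of plates G and H apart. Zfp944 (3.31, SE 0.77, adjusted p = 0.0329), Mir692-1, the class II histocompatibility gene H2-Aa and the lysozyme gene Lyz1 were higher, with edgeR adjusted p-values of 0.0217 to 0.0372. H2-Aa stood at 1739 and 1819 CPM in 5w replicates 2 and 3, against 838 CPM in 5w replicate 1 and 117 to 205 CPM in 5w replicates 4 to 7. Leaving out 1 mouse left 0 genes without 5w replicate 2 (1498 at an unadjusted p under 0.05), 12 without 5w replicate 3, 55 to 73 without any 1 of 5w replicates 4 to 7 or of both 0w mice and 2w replicate 2, 173 without 8w replicate 1 and 268 without 5w replicate 1.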

How the data were processed

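Per the labels' protocols, left ventricular tissue was cut into slices, digested, and single cells were made into libraries by template-switching reverse transcription in nanowell plates. The authors deposited UMI counts per gene and cell with an annotation of subclusters, and the submitters' processing notes name STAR 2.5.2b, featureCounts, Subread 1.4.6-p1 and the builds mm10 and GRCh37, with no role given. The deposited table held 36950 genes and 11492 cells, and 34 mitochondrial genes were left out of CPM. Gene positions are from the GRCm38 annotation.

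Counts were summed over cells per mouse, and log2 differences used CPM plus a pseudocount of 1. Genes needed at least 50 UMIs within mice and 200 UMIs against the 10 mice. The annotation holds FB1 to FB10, and the within-mouse comparison used FB1 to FB4 as designed. The genes named first were the 12 with the largest difference in each direction, beside genes of fixed lists. Stage tests used edgeR 4.0.16 (TMM, filterByExpr, quasi-likelihood) on sums of at least 10 cells per mouse, with DESeq2 1.42.0 as an alternative, under R 4.3.3 and Python 3.11.15. The fibroblast test was checked on simulated data and recovered 20% of genes changed by a log2 of 2 and 63.3% of those changed by 4. Each mouse counts as 1 replicate. The members and gene lists were chosen with earlier results of these data known. The comparison with 10 mice, the split by plate and the comparison of plate F macrophages were added after seeing the data. Doublets were not called.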

Additional observations from a re-analysis of the deposited data

Results flagged for a closer look

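Among the macrophages of the 5w mice, Ankrd23, a muscle ankyrin repeat gene, stood at 174 CPM in 5w replicate 6, against 28.7 to 61.6 CPM in 5w replicates 4, 5 and 7 and 0 to 2.69 CPM in 5w replicates 1 to 3, a gap to the nearest mouse that is large for the range of 7 mice. It was the only one of 11 groups looked at to stand out in this way, and chance alone gives about 1 in 20 such groups.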

How the results depend on the processing

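The within-mouse counts (1116 genes at least 2-fold higher, 839 lower) were 579 and 400 with a pseudocount of 10 CPM, 705 and 493 with at least 200 UMIs, 463 and 274 with all other fibroblasts of 3 mice, and 1809 to 2128 and 489 to 5002 when either mouse was left out. With TMM factors they were 835 and 962, and with erythroid marker genes left out of the total 978 and 1082. No mouse had 10 cells of each kind, so that minimum gave no value. Against the 10 mice, the genes above the range (604) were 223 with TMM factors, 363 with at least 1000 UMIs and 625 to 2074 when 1 mouse was left out (1786 without 5w replicate 2, 2074 without 5w replicate 3). Those below (700) were 436 with CPM of all UMIs, 1362 with TMM factors and 713 to 2156 when 1 mouse was left out. Fewer mice must pass when 1 is left out, so these counts can only grow. The fibroblast stage count (1) was 498 with no filter on low counts, 362 by DESeq2, 0 without both mice of plate F, 0 with FB5 cells left out of the sums (758 genes at an unadjusted p under 0.05 by edgeR), which also leaves those mice with under 10 cells, and 0 to 130 when 1 mouse was left out. In these last 2 fits without plate F, Zfp944 turned to -1.06 and -0.90. The endothelial count (50) was 164 with RLE factors, 460 with no filter, 252 by DESeq2, 0 without mitochondrial genes (1628 at an unadjusted p under 0.05), 0 with at least 20 cells per mouse (996), 0 without plate F (1495) and 0 to 93 when 1 mouse was left out. The macrophage count (36) was 60 with RLE factors, 0 with no filter (3124), 172 by DESeq2, 10 without mitochondrial genes, 15 without plate F and 0 to 56 when 1 mouse was left out. The count for macrophages of plate F (111) was 38 with no filter, 18 with at least 20 cells per mouse and 0 to 268 when 1 mouse was left out. Mice of the same replicate number did not deviate together (r of -0.0159 to 0.127 in fibroblasts over 21 pairs), so the numbers pair no samples, and the replicate block gave 2 fibroblast, 0 endothelial (782 at an unadjusted p under 0.05) and 74 macrophage genes. The causes of these differences were not tested. With 59 FB5 cells from 2 mice on 1 plate, mouse and plate cannot be told apart.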
